A study of Mus musculus with 4 samples.

Results

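The genes described here encode the chaperones, quality control factors and stress sensors of the endoplasmic reticulum (ER) in Th17 cells of the mouse, the helper T cells named for their cytokine interleukin 17. The 32 genes were chosen by symbol for their known roles in ER protein folding, ER-associated degradation (ERAD) and the unfolded protein response. All 32 were found among the 50600 genes listed in the count tables. RNA came from primary Th17 cells of the C57BL/6NJ strain, for which the labels link a protocol that differentiates CD4 T cells, and the file headers give a time of 72 hr for each library. The 4 libraries form 1 group, replicates 1 to 4, with no treatment, mutation or control arm. They are 4 biosamples under the same donor identifier, sex was not collected and age is unknown. Whether the biosamples came from separate animals is not stated, so the p-values below measure the spread between these libraries, which may be technical. The labels call the assay total RNA-seq, while a poly(A)+ library protocol is the one they link.

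Proteins bound for secretion or for membranes enter the ER as unfolded chains through the SEC61 channel and are folded there by chaperones, lectins and disulphide isomerases. Chains that fail to fold are marked, pulled back into the cytosol and degraded by the proteasome, which is the ERAD route. When unfolded chains accumulate, the sensors IRE1, ATF6 and PERK act: IRE1 splices the mRNA of the transcription factor XBP1, ATF6 is cleaved into a transcription factor, and PERK phosphorylates the initiation factor eIF2 and so lowers translation. XBP1 and ATF6 raise transcription of the folding and degradation genes, and this programme is best known in secretory cells such as plasma cells. Activated T cells that release cytokines use the same route.

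Total counts ranged from 33123029 to 37746767 per library. Levels are given in TPM, a gene's share of its library after division by gene length. A count of 3, the limit that a count of 0 allows for counting error alone, stood for 0.0795 to 0.0906 CPM (the share of counts with no length correction). Replicate 2 stood apart from replicates 1, 3 and 4. The chi-square statistic of gene counts was 44.6 to 49.4 per degree of freedom for pairs that include replicate 2 and 4.44 to 6.61 for the other pairs. In the marker lists, a gene is counted as above 1 TPM where the edgeR test of its level called it so. All 10 Th17 and T cell marker genes passed, but their summed level was 2962 TPM in replicate 2, against 7807, 7312 and 7093 TPM in replicates 1, 3 and 4, with most of the difference in Il17a and Il17f. Il17a stood at 505 TPM in replicate 2, against 2543, 2181 and 2155 TPM, and Il17f at 578 TPM, against 2908, 2757 and 2619 TPM. Ccr6 and Il23r were also lower (log2 change -2.14 and -0.62). The T cell genes Cd4, Cd3e and Trac had no call (0.01, 0.07 and -0.09), nor had Il1r1 (0.04) or Il22 (-0.89), and Cd3g was called higher (0.16). Of 10 B and plasma cell markers 2 were called above 1 TPM (Ighm and Sdc1), while Cd79b and Mzb1 had means of 1.23 and 1.01 TPM with no such call, and the list summed to 102 TPM in replicate 2, against 99.2, 97.0 and 108 TPM. Most of that sum was Ighm and Sdc1, with means of 64.2 and 34.5 TPM over the 4 libraries. At the low end, Tnfrsf17 had no count in any library and Jchain reached at most 0.104 TPM. The myeloid list, with 3 of 10 genes called above 1 TPM and Lyz2 at 0 in all 4 libraries, summed to 34.9 TPM in replicate 2, against 21.6, 21.8 and 23.0 TPM. Most of that difference was Flt3, with 11.5 TPM in replicate 2, against 1.29, 0.848 and 0.882 TPM (log2 change 3.58), while Adgre1 was called lower (-0.54). The CD8 and natural killer list, with 5 of 8 called above 1 TPM and Ncr1 at 0, summed to 66.0 TPM in replicate 2, against 123, 106 and 121 TPM. Most of it was Nkg7, with 28.7 TPM in replicate 2, against 63.5, 54.7 and 65.3 TPM, and Cd8b1. Cd8b1 had 31.6 TPM in replicate 2, against 48.0, 41.6 and 46.9 TPM. Cd8a was almost absent, with 1 count in replicate 2, against 0, 3 and 2 counts in replicates 1, 3 and 4. Klrb1c had 1 count in replicate 3 and none elsewhere. Prf1 had 1.22 TPM in replicate 2, against 4.49, 3.98 and 4.29 TPM. Gzma and Klrd1, at 2.59 and 1.91 TPM in replicate 2, lay inside the range of the other libraries. The stromal list, with 2 of 8 called above 1 TPM and Col3a1 and Krt8 at 0, summed to 617 TPM in replicate 2, against 1206, 1097 and 1145 TPM, and most of it was Vim, which T cells also express. The part of these differences in the results below was not tested. In bulk RNA, fewer cells of a type and less RNA per cell cannot be told apart.

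XBP1 and ATF6 are known to act through short promoter motifs, so the promoters of the genes were searched. The ER stress response element (ERSE) was searched as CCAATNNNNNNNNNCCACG, ERSE-II as ATTGGNCCACG, the unfolded protein response element (UPRE) as TGACGTGG and the composite site of ATF4, a factor translated when PERK is active, as TGATGCAAT, each on both strands. The windows, from RefSeq on build GRCm38.p6 (mm10), run from 250 bases before to 50 bases after a gene's start. Of the 32 genes 26 matched a window. Hyou1, Manf, Derl1, Sec61a1, Atf6 and Ppp1r15b are named only. ERSE lay in 9 of the 26 (34.6%), against 37 of 27025 genes with a window (0.137%), or 0.119% of all 32851 windows. ERSE-II lay in Dnajb11 and Herpud1 (7.69% of the 26, and 12 genes or 0.0444% of all). UPRE lay in Sec24d and Vcp (7.69%, and 193 genes or 0.714% of all), and the ATF4 composite in none of the 26, against 60 genes or 0.222% of all. The short parts of ERSE, which ERSE-II also contains, were common: CCAAT lay in 84.6% of the 26 and 41.1% of all genes, and CCACG, whose other strand is also part of UPRE, in 84.6% and 35.5%. An exact match is a description of these letters and not a binding site, and the gene set was chosen for known roles that include being targets of these factors.

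The sequence upstream of Hspa5, which encodes the main ER chaperone, is shown whole as the reference for the others, 250 bases at chr2:34771840-34772089 on the plus strand, ending at the base before the RefSeq start. Its ERSE, in capitals, runs from base -65 to base -47 before that start. GENCODE places the start of Hspa5 further upstream, at base 34771970 of chromosome 2, so that distances hold for the RefSeq start.
Hspa5: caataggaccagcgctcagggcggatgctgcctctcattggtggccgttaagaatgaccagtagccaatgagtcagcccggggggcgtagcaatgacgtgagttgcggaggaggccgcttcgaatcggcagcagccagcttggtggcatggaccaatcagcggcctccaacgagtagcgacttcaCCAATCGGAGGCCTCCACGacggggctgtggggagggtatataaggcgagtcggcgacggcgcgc

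The ERSE matches of the other 8 genes are shown with 20 bases on either side, on the strand of the gene and 5′ to 3′, with the match in capitals. They are set side by side because 6 of these genes fell in replicate 2 and Calr and Canx had no call. In Calr, Derl3, Creld2 and the match of Hsp90b1 nearer to the start the motif is on the other strand, so that it reads CGTGG first and ATTGG last. The 9 bases between both ends are not part of the motif and differ between the genes.
Hsp90b1, far match: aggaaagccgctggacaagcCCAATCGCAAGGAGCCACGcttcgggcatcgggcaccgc
Hsp90b1, near match: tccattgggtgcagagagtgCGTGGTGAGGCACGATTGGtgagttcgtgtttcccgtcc
Pdia6: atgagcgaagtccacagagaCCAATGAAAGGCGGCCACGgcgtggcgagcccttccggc
Dnajc3: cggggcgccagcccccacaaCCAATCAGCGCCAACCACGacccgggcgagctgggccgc
Creld2: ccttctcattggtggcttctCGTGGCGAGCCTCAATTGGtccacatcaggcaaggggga
Derl3: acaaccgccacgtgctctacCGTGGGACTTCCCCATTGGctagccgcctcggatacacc
Syvn1: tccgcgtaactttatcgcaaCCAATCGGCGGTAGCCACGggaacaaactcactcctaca
Calr: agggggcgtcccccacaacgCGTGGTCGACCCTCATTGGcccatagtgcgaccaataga
Canx: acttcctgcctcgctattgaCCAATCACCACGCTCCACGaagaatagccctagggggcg

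These stretches lie at chr10:86705618-86705676 and chr10:86705513-86705571 on the minus strand (Hsp90b1), chr12:17266471-17266529 on the plus strand (Pdia6), chr14:118937807-118937865 on the plus strand (Dnajc3) and chr15:88819500-88819558 on the plus strand (Creld2). The others lie at chr10:75893222-75893280 on the plus strand (Derl3), chr19:6046512-6046570 on the plus strand (Syvn1), chr8:84847055-84847113 on the minus strand (Calr) and chr11:50325780-50325838 on the minus strand (Canx). The matches to ERSE-II, 1 upstream of Herpud1 at chr8:94386357-94386407 and 1 just inside Dnajb11 at chr16:22857832-22857862, and to UPRE, in Sec24d at chr3:123267450-123267495 (all plus strand) and in Vcp at chr4:43000594-43000641 (minus strand), are shown because Herpud1 and Sec24d were among the genes with the largest falls and Vcp had no call.
Herpud1: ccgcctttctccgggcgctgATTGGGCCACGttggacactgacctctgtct
Dnajb11: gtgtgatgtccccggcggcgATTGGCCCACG
Sec24d: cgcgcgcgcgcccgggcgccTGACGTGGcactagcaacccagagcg
Vcp: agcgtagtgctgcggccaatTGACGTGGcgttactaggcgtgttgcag

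**Figure D1:**
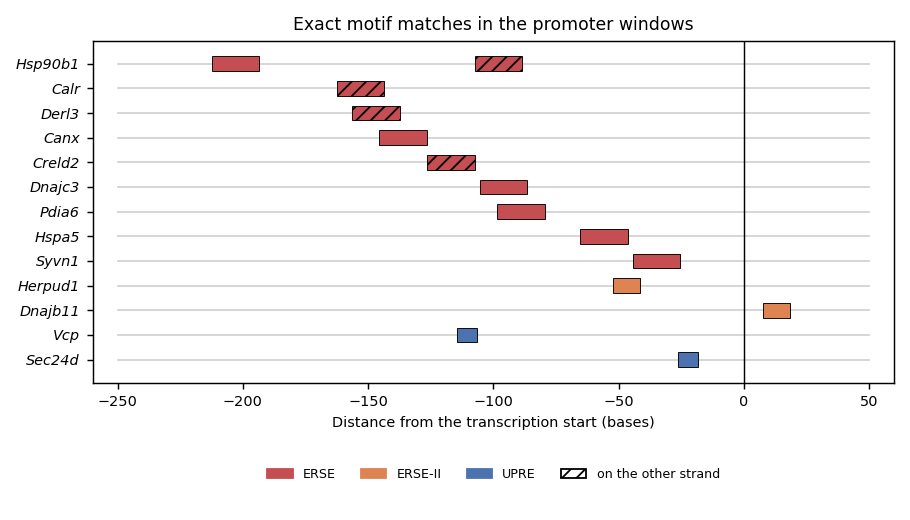
Position of each exact motif match relative to the RefSeq transcription start (x axis, in bases, from 250 before to 50 after it) in the 13 genes with a match, 1 row per gene; colour gives the motif and hatching a match on the strand opposite to the gene. The ERSE matches end between base -194 (the far match of Hsp90b1) and base -26 (Syvn1), and the ERSE-II match of Dnajb11 is the match that lies after the start, from base 8 to base 18.

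Fitted over the 4 libraries, the level of all 32 genes lay above 1 TPM, as did that of 70.6% of all genes tested. The test was the edgeR quasi-likelihood test of the level, Benjamini-Hochberg adjusted over 17337 genes. The genes stood high among expressed genes: 21 of 32 had a mean of at least 100 TPM, against 12.6% of genes tested, and their median mean level was 161 TPM, against 10.6 TPM over all genes tested. P4hb, Hspa5 and Calr had the 3 highest means, 1219 ± 232, 1099.6 ± 165 and 1098 ± 52.3 TPM (SD, n = 4), and together with Hsp90b1 they made up 47.8% of the summed level of the 32 genes. At the low end stood Derl3, with 0.964 TPM in replicate 2, against 4.71, 3.72 and 4.03 TPM in replicates 1, 3 and 4. Summed over the 32 genes the level was 7554 TPM in replicate 2, against 9676, 9777 and 9653 TPM in replicates 1, 3 and 4. That is 0.755% of the library in replicate 2, against 0.968%, 0.978% and 0.965%. Over the 4 libraries the sum averaged 9165 ± 1075 TPM (SD, n = 4), and without replicate 2 it averaged 9702 ± 66.0 TPM (SD, n = 3). The role groups were lower in replicate 2 by different shares of their summed TPM. The ratio of replicate 2 to the mean of the other 3 was 0.714 for chaperones and co-chaperones and 0.808 for lectins and disulphide isomerases. It was 0.787 for sensors and regulators, 0.852 for ERAD and 0.785 for translocation and COPII transport. These ratios include an offset of the TPM scale. Over genes with a mean of at least 1 TPM, the median log2 ratio of replicate 2 to the other libraries was -0.06.

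**Figure D2:**
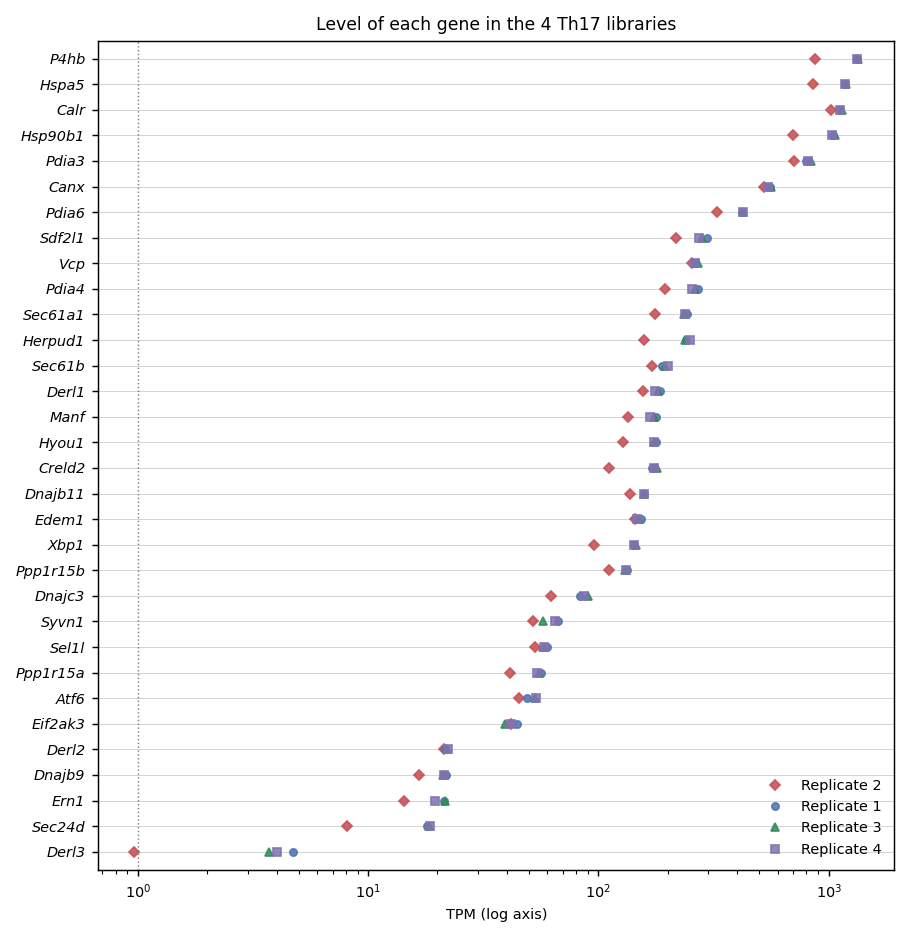
Level of each of the 32 genes in TPM (x axis, logarithmic) in replicate 2 (diamonds) and in replicates 1, 3 and 4 (circles, triangles and squares), 1 row per gene from the highest mean at the top to the lowest; the dotted line marks 1 TPM. Replicates 1, 3 and 4 lie almost on top of each other for most genes, and replicate 2 is the lowest library for 31 of 32.

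Replicate 2 was compared with the other 3 libraries by edgeR's quasi-likelihood test over all genes, and each other library was compared in the same way. These are comparisons of libraries, not of conditions, the lone library is assumed to vary like the rest, and the 4 comparisons share their libraries. In replicate 2, 22 of the 32 genes fell (adjusted p under 0.05), against 10.9% of all genes tested, and none rose, against 11.7% of all genes tested. Of the 32, 25 had an unadjusted p under 0.05, against 32.5% of all genes tested, and DESeq2 called 19, all lower, against 8.24% of all genes tested. The median log2 change of the 32 was -0.31, beside -0.01 over all genes tested. It was -0.00 over all genes when only those with at least 100 summed counts were tested. The shares of calls over all genes are not matched for level. The median mean was 161 TPM for the 32 and 10.6 TPM for all genes tested. On the TPM scale, where the median log2 ratio of replicate 2 to the other libraries was -0.06 over genes of at least 1 TPM, 31 of 32 were lowest in replicate 2, as were 43.2% of genes tested. The exception was Eif2ak3, which was lowest in replicate 3.

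In replicates 1, 3 and 4 no gene of the 32 was called, and the share of all genes called was 0.0%, 0.0% and 0.0%. None of the 32 had an unadjusted p under 0.05 there and DESeq2 called none of them, while over all genes 166, 257 and 128 had an unadjusted p under 0.05 and DESeq2 called 2, 15 and 3. The median log2 changes of the 32 were 0.13, 0.09 and 0.07, in comparisons in which replicate 2 is among the 3 other libraries. With replicate 2 left out, edgeR again called none of the 32 in replicates 1, 3 and 4, and 68, 108 and 9 genes of those tested. There, the log2 changes of the 32 ran from -0.12 (Atf6) to 0.29 (Derl3) in replicate 1. They ran from -0.22 (Derl3) to 0.09 (Dnajc3) in replicate 3 and from -0.15 (Ern1) to 0.06 (Atf6) in replicate 4. DESeq2 was not run without replicate 2.

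**Figure D3:**
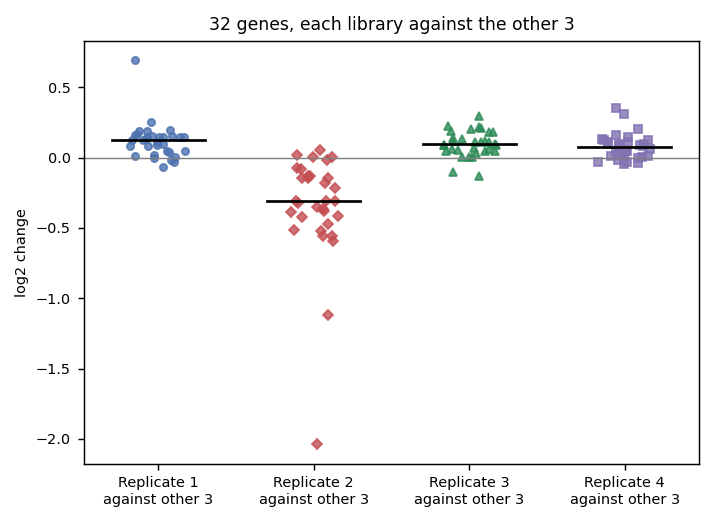
The log2 change of each of the 32 genes (points) in each library against the other 3 (x axis), from the edgeR fit; the black bar is the median. Replicate 2 has a median of -0.31 and reaches down to -2.04 (Derl3), while the medians of replicates 1, 3 and 4 are 0.13, 0.09 and 0.07.

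Among the chaperones and co-chaperones 8 of 9 fell in replicate 2. Hspa5 (ENSMUSG00000026864.13, chr2:34771970-34777547, plus strand) encodes BiP, the ER HSP70 that binds unfolded chains and keeps the sensors inactive. It had 852 TPM in replicate 2, against 1178, 1187 and 1182 TPM in replicates 1, 3 and 4, so the other 3 libraries spanned a narrow range far above replicate 2. The log2 change was -0.41 ± 0.04 (SE), or 1.33-fold lower, with an edgeR adjusted p of 1.42e-07. Hsp90b1, the ER HSP90 known as GRP94, had 701 TPM in replicate 2, against 1040.2, 1065 and 1039 TPM, a log2 change of -0.52 ± 0.04. Creld2, an ER stress-inducible protein with EGF-like domains, had the largest fall of the group, with 111 TPM in replicate 2, against 171, 179 and 175 TPM (log2 change -0.59 ± 0.07, edgeR adjusted p = 8.04e-07). Replicate 2 was the library with the lowest TPM for each of the 3 genes, as it was for 31 of the 32 and for 43.2% of genes tested.

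The remaining genes of the group had smaller falls than Hsp90b1 and Creld2. Hyou1, the GRP170 protein that exchanges nucleotide on BiP, had 128 TPM in replicate 2, against 177, 174 and 174 TPM (log2 change -0.39 ± 0.05). Sdf2l1, a stress-induced partner of BiP and its co-chaperones, had 217 TPM in replicate 2, against 296, 281 and 274 TPM (-0.32 ± 0.06). Manf, a secreted ER protein that binds BiP, had 134 TPM in replicate 2, against 178, 175 and 167 TPM (-0.31 ± 0.05). The J-domain proteins that deliver substrates to BiP were unequal. Dnajc3, also known as an inhibitor of PERK, had 62.0 TPM in replicate 2, against 83.2, 90.1 and 87.0 TPM, a log2 change of -0.42 ± 0.05. Dnajb11 (ERdj3) had 137 TPM in replicate 2, against 158, 159 and 158 TPM, a log2 change of -0.14 ± 0.05 that DESeq2 did not call (adjusted p = 0.0608). Dnajb9 (ERdj4), which also restrains IRE1, had 16.6 TPM in replicate 2, against 21.7, 21.1 and 21.4 TPM. Its log2 change of -0.31 ± 0.11 missed the threshold with an edgeR adjusted p of 0.0572, at the lowest counts of the group, and passed it when only genes with at least 100 summed counts were tested (adjusted p = 0.0428).

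Of the lectin chaperones and disulphide isomerases 4 of 6 fell, all of them isomerases. P4hb (ENSMUSG00000025130.11, chr11:120560298-120573253, minus strand), the protein disulphide isomerase itself and the most abundant of the 32 genes, had 872 TPM in replicate 2, against 1329, 1344 and 1331 TPM in replicates 1, 3 and 4. Its log2 change was -0.55 ± 0.04, 1.47-fold lower, with an edgeR adjusted p of 3.61e-09. Pdia4 (ERp72) had 195 TPM in replicate 2, against 269.7, 263 and 255 TPM (log2 change -0.37 ± 0.05), and Pdia6 (P5) had 328 TPM in replicate 2, against 422, 426 and 426 TPM (-0.31 ± 0.05). Pdia3 (ERp57), the isomerase that works with the lectins, fell least, with 710.0 TPM in replicate 2, against 800.4, 837 and 815 TPM (-0.14 ± 0.04, edgeR adjusted p = 0.0242). The lectins bind glycoproteins that carry a trimmed sugar chain, and neither was called. Calr, which encodes calreticulin, had 1023 TPM in replicate 2, against 1108, 1141 and 1122 TPM, with a log2 change of -0.07 ± 0.04 and an edgeR adjusted p of 0.232. Canx, which encodes membrane-bound calnexin, had 523 TPM in replicate 2, against 554, 559 and 545 TPM (-0.02 ± 0.04, edgeR adjusted p = 0.805). P4hb therefore stood above Calr in replicates 1, 3 and 4 and below it in replicate 2, with a TPM ratio of 0.852 in replicate 2, against 1.20, 1.18 and 1.19.

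Among the sensors and regulators 4 of 6 fell. Xbp1 (ENSMUSG00000020484.18, chr11:5520659-5525893, plus strand) had 96.0 TPM in replicate 2, against 142, 145 and 143 TPM in replicates 1, 3 and 4, a log2 change of -0.52 ± 0.05 (edgeR adjusted p = 8.02e-08). Counts per gene do not separate the spliced from the unspliced Xbp1 mRNA. Ern1, which encodes IRE1, had 14.4 TPM in replicate 2, against 21.3, 21.5 and 19.6 TPM (-0.47 ± 0.08). The ratio of Xbp1 to Ern1 was 6.69 in replicate 2, against 6.68, 6.75 and 7.29, so both genes were lower there by similar shares. The other sensors had no call: Atf6 had 45.3 TPM in replicate 2, against 48.8, 52.9 and 53.4 TPM (-0.13 ± 0.05, edgeR adjusted p = 0.0870), and was called lower when replicate 1 was left out (adjusted p = 0.0151). Eif2ak3, which encodes PERK, had 41.5 TPM in replicate 2, inside the 44.5, 39.2 and 41.6 TPM of replicates 1, 3 and 4 (0.05 ± 0.06). The genes for the subunits that direct a phosphatase to eIF2 both fell. Ppp1r15a (GADD34), the stress-induced subunit, had 41.4 TPM in replicate 2, against 56.1, 55.0 and 54.1 TPM (-0.35 ± 0.08), and Ppp1r15b (CReP), the constitutive subunit, had 111 TPM, against 133, 130.4 and 132 TPM (-0.18 ± 0.05).

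The ERAD genes were the most mixed group, with 4 of 8 lower. Herpud1, which encodes a membrane adaptor of the degradation complex and carries the ERSE-II match shown above, had 159 TPM in replicate 2, against 241, 239 and 249.8 TPM, a log2 change of -0.56 ± 0.05 (edgeR adjusted p = 3.98e-08). Syvn1, the HRD1 ubiquitin ligase at the core of the complex, had 51.9 TPM in replicate 2, against 66.6, 57.3 and 64.5 TPM (-0.21 ± 0.07, edgeR adjusted p = 0.0482, and 0.0668 by DESeq2). Its partner Sel1l had 53.0 TPM in replicate 2, against 59.9, 57.6 and 57.8 TPM, with no call (-0.08 ± 0.05). Edem1, a mannosidase-like protein that hands over misfolded glycoproteins, had 144 TPM in replicate 2, against 153, 151 and 147 TPM, and Vcp, the ATPase p97 that pulls chains out of the membrane, had 254 TPM, against 262, 270.4 and 262 TPM. Both had a log2 change of 0.00 ± 0.05.

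The derlins, which form the channel for export of misfolded chains, differed from each other. Derl3 (ENSMUSG00000009092.5, chr10:75893413-75895941, plus strand) had 22 counts in replicate 2, against 93, 78 and 90 counts in replicates 1, 3 and 4, the largest change of the 32 genes, with a log2 change of -2.04 ± 0.37 (4.11-fold lower, edgeR adjusted p = 2.81e-04). Derl1 had 156 TPM in replicate 2, against 184, 181 and 175 TPM (-0.15 ± 0.05, edgeR adjusted p = 0.0424), a call that was lost with DESeq2 (adjusted p = 0.0695) and without replicate 1 (0.0778). Derl2 had 21.3 TPM in replicate 2, against 21.6, 22.0 and 22.2 TPM, with no call (0.02 ± 0.07). The 3 genes stood in the same order, Derl1 above Derl2 above Derl3, in all 4 libraries. The level of Derl1 was 7.33 times that of Derl2 in replicate 2, against 8.55, 8.23 and 7.89 times, whereas it was 162 times that of Derl3 in replicate 2, against 39.1, 48.7 and 43.5 times.

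Of the transport genes 2 of 3 fell. Sec24d (ENSMUSG00000039234.11, chr3:123267455-123365641, plus strand), a cargo adaptor of the COPII coat that buds vesicles from the ER, had 8.09 TPM in replicate 2, against 17.9, 18.4 and 18.6 TPM in replicates 1, 3 and 4. The log2 change was -1.12 ± 0.10, 2.17-fold lower, with an edgeR adjusted p of 2.31e-08. Sec61a1, the pore subunit of the SEC61 channel, had 176 TPM in replicate 2, against 243, 236 and 238 TPM (-0.38 ± 0.05), while Sec61b, its small beta subunit, had 170.3 TPM, against 189.8, 195 and 200.1 TPM, with no call (-0.13 ± 0.06, edgeR adjusted p = 0.119).

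**Figure D4:**
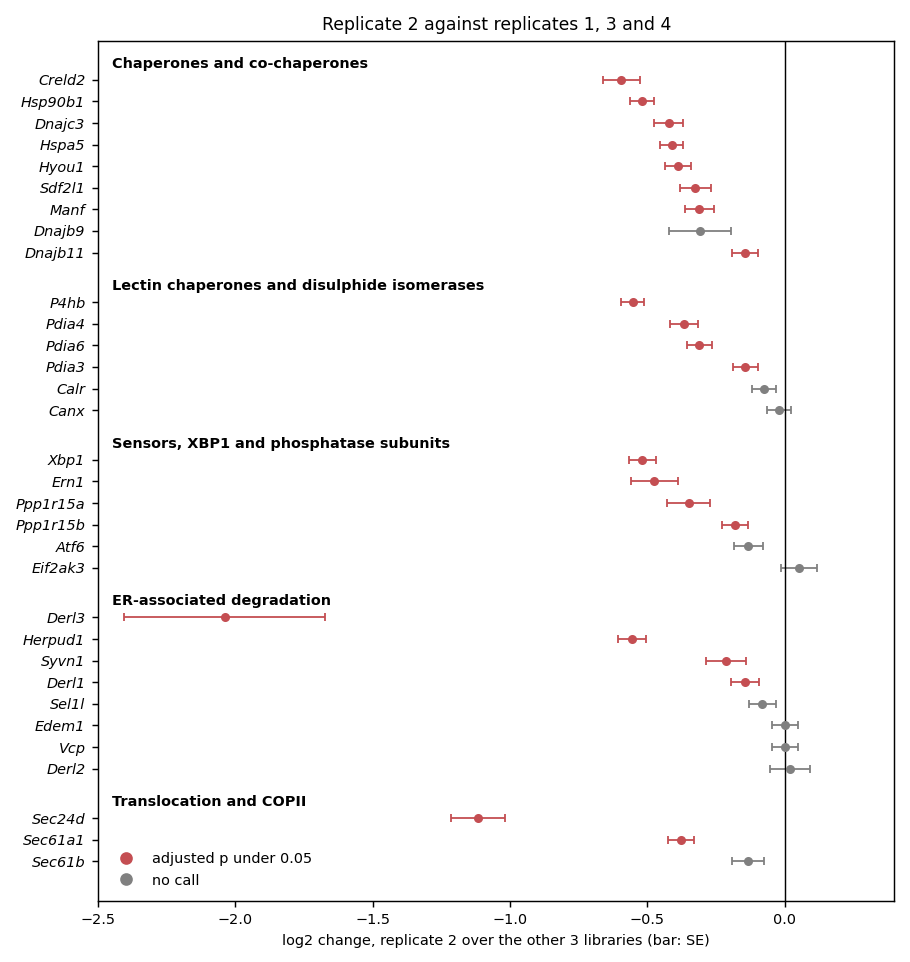
The log2 change of each of the 32 genes in replicate 2 over replicates 1, 3 and 4 (x axis; points are the edgeR estimates, bars the SE), grouped by role; red marks genes with an adjusted p under 0.05. Derl3 (-2.04) and Sec24d (-1.12) lie furthest from 0, and the 10 genes without a call are spread over all 5 groups.

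Replicates 1, 3 and 4 were close to each other. The coefficient of variation of TPM over these 3 libraries had a median of 1.86% for the 32 genes and ran from 0.339% (Dnajb11) to 12.1% (Derl3), beside a median of 3.60% over the 8809 genes with a mean of at least 10 TPM. Over all 4 libraries the medians were 12.2% for the 32 genes and 6.37% for those 8809 genes. The sets were not matched for level, since the 32 genes had a median mean of 161 TPM. The part of level in these differences was not tested. A test of each gene's spread against that of genes of like abundance, which does not name a library, called none of the 32 as variable, while 6 of 17337 genes, or 0.0346%, were called (edgeR quasi-dispersion over its trend). Without adjustment, 11 of the 32 and 1068 of all genes had a p under 0.05, with the smallest of the 32 at Sec24d (unadjusted p = 0.00720). DESeq2 has no test of this kind and was not run for it.

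Ranked by mean TPM, the 32 genes form 31 neighbouring pairs, and in 24 of these the ranges over the 4 libraries overlapped. The pairs that did not overlap were Pdia3 over Canx, Canx over Pdia6, Pdia6 over Sdf2l1, Ppp1r15b over Dnajc3, Atf6 over Eif2ak3, Eif2ak3 over Derl2 and Sec24d over Derl3. In 16 of 31 pairs the order was the same in all 4 libraries. Without replicate 2, 8 of 31 pairs overlapped. Between genes of related roles, the level of Calr was 2.01 ± 0.05 times that of Canx (mean ± SD of the TPM ratio, n = 4). On the same measure Hspa5 was at 1.15 ± 0.04 times Hsp90b1, and Ppp1r15b at 2.47 ± 0.15 times Ppp1r15a. Each ratio had the same direction in every library. The level of Hspa5 was 13.7 ± 0.41 times that of its co-chaperone gene Dnajc3. Atf6 stood above Ern1 in every library, with a ratio of 3.15 in replicate 2, against 2.29, 2.46 and 2.73.

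The fall in replicate 2 was set beside the ERSE matches shown above. The 9 genes with an ERSE had a median log2 change of -0.41, and the 17 with a window and no ERSE one of -0.31. Those 17 include the genes with ERSE-II. The median was -0.41 for the 11 genes with ERSE or ERSE-II and -0.31 for the 15 with neither. Over the 11539 tested genes with a window it was 0.00. Calr and Canx hold an exact ERSE and had log2 changes of -0.07 and -0.02, whereas P4hb and Xbp1 had none in their windows and fell by 0.55 and 0.52. Both genes with ERSE-II fell, and of the genes with UPRE Sec24d fell while Vcp had a log2 change of 0.00. Outside the 32 genes, 28 genes held an ERSE in their window. Of these, 11 were tested, at a median mean level of 0.696 TPM. The median log2 change of these 11 in replicate 2 was -0.45, with single values from -2.03 to 0.42. Their level was far below that of the 9 genes, whose median mean was 401 TPM. Genes of like level were not set beside them. These values are a description with no test.

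Other genes of the same pathways were taken from 8 lists grouped by role, and 35 of 141 tested were lower and 6 higher in replicate 2, with a median log2 change of -0.08. Over all genes tested 10.9% were lower and 11.7% higher, which is the background for each of the 8 lists. The targets of ATF4 and CHOP, which are induced through PERK and by amino acid shortage, had 4 of 10 lower and 1 higher. Ddit3, which encodes CHOP, had 38.0 TPM in replicate 2, against 65.1, 70.6 and 70.3 TPM in replicates 1, 3 and 4 (log2 change -0.79 ± 0.10). Trib3, a pseudokinase induced by CHOP, had 20.8 TPM in replicate 2, against 51.9, 48.4 and 53.0 TPM (-1.23 ± 0.10). Vldlr, a lipoprotein receptor, had a log2 change of -1.64 ± 0.11 and Nupr1, a stress-induced nuclear protein, one of -1.60 ± 0.20, at mean levels of 7.41 and 6.93 TPM. Sesn2, an inhibitor of mTORC1 signalling, rose, with 148 TPM in replicate 2, against 124, 112 and 112 TPM (0.42 ± 0.06). Atf4 itself, with 808 TPM in replicate 2, against 921, 917 and 914 TPM, was not called (-0.12 ± 0.05, edgeR adjusted p = 0.0587), nor were Atf3 (-0.28), Chac1 (-0.32), Ddit4 (-0.06) and Asns (-0.02).

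In the folding machinery, 6 of 25 other chaperones and isomerases were lower and none higher. Ero1l, the oxidase that recharges P4hb with disulphide bonds, had 143 TPM in replicate 2, against 267, 264 and 265 TPM, a log2 change of -0.83 ± 0.05 (edgeR adjusted p = 7.51e-11). The other abundant genes of that list, Ppib (cyclophilin B) and Serp1, had means of 252 ± 4.13 and 240.2 ± 2.89 TPM (SD, n = 4) and changes of 0.04 and 0.08 with no call. The calnexin cycle and cargo lectins had 2 of 10 lower and 1 higher. Mcfd2, part of a cargo receptor, had the largest fall (-0.35 ± 0.09), and Mlec, the ER lectin malectin, rose to 308 TPM in replicate 2, against 259.5, 258 and 252 TPM (0.32 ± 0.04). The glucosidase genes Ganab and Mogs, which trim sugar chains, had log2 changes of 0.03 and 0.02. Of the oligosaccharyltransferase, which attaches those chains, 4 of 12 genes were lower and none higher, with the largest fall at Ostc (-0.25 ± 0.05). Its abundant subunit genes Ddost, Rpn1 and Rpn2 had changes of -0.06, -0.09 and -0.14, of which that of Rpn2 was called (edgeR adjusted p = 0.0303).

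At the entry and exit of the ER, 8 of 22 other translocation genes were lower and none higher. Sec11c, a catalytic subunit of the signal peptidase, had 65.8 TPM in replicate 2, against 96.4, 102 and 105 TPM (-0.56 ± 0.06), and Ssr3, part of the complex beside the channel, had 297 TPM, against 369.5, 386 and 378 TPM (-0.29 ± 0.05). Ssr2 and Srpr, at means of 388 and 280.0 TPM, had changes of -0.11 and -0.07 with no call. Of the other ERAD genes 5 of 24 were lower and none higher. Selenos, an ER membrane selenoprotein that binds p97, had 198 TPM in replicate 2, against 257, 255 and 254 TPM (-0.31 ± 0.05), while Rad23b and Aup1 had changes of -0.10 and 0.06 with no call. Of 21 other vesicle transport genes 4 were lower and 1 higher. The retrieval receptor gene Kdelr3 had the largest change (-0.82 ± 0.18), and the cargo receptor gene Surf4 had 233 TPM in replicate 2, against 317, 300.5 and 293 TPM (-0.32 ± 0.05), whereas Tmed9 and Sec24c, at means of 487 and 214 TPM, had changes of -0.10 and -0.05. The remaining stress factors and kinases had 2 of 17 lower and 3 higher, with the largest change among the called genes at Traf2, an adaptor that binds IRE1 (0.36 ± 0.07), and changes of -0.07, 0.09 and -0.02 with no call in Rtcb, the ligase that joins spliced Xbp1, Tmbim6 and Eif2s1.

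**Figure D5:**
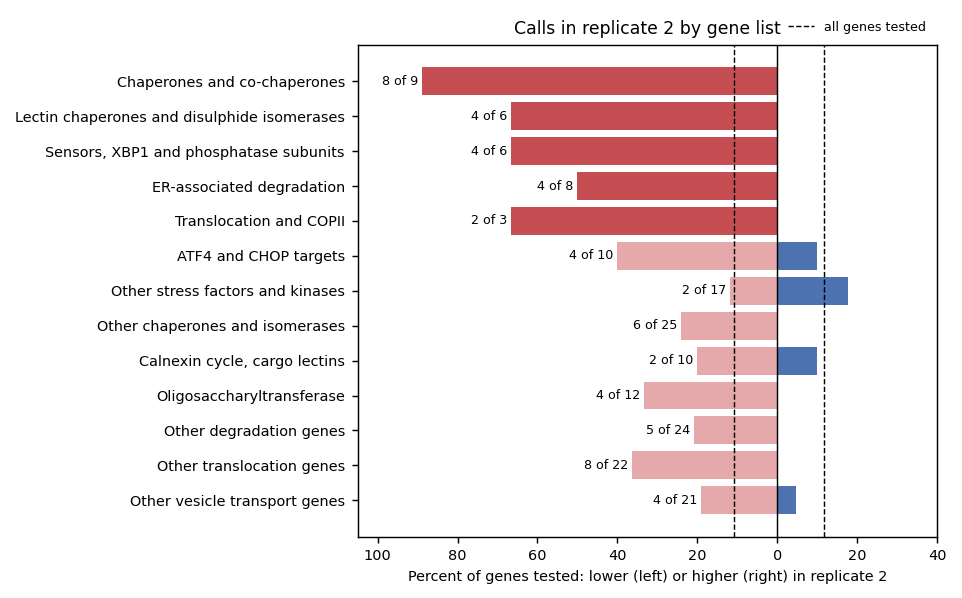
Percent of the tested genes of each list that were lower (left) or higher (right) in replicate 2 than in replicates 1, 3 and 4, for the 5 role groups of the 32 genes (dark red) and the 8 other pathway lists (light red; higher in blue); dashed lines mark 10.9% lower and 11.7% higher over all genes tested. The role groups run from 4 of 8 (ERAD) to 8 of 9 (chaperones) lower with none higher, and the other lists hold 35 lower and 6 higher of 141.

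Some counts are less certain than their depth implies. Reads that map to several places or lie on several genes are not counted by default with this counter, and the recorded command changes neither default. Hsp90b1 shares up to 133 bases of exon with a microRNA gene (Gm25745) and 84 with a non-coding transcript (Gm15344, 124 counts in all), and Manf and Pdia4 share 14 bases with Rbm15b and Mir704. The annotation also lists a processed pseudogene of Calr, with 0 to 1 counts per library, and a gene named Vcp-rs, with 176 counts in replicate 2, against 139, 180 and 142 counts. The part of these in the levels of Calr and Vcp was not tested.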

How the data were processed

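Gene expression was measured in 4 Th17 libraries. Per the file headers, the authors counted read pairs per gene with featureCounts 1.4.6-p4 (strand option 2) against GENCODE M13, and the deposited values are raw counts per gene with no normalization, 1 table per library, with each gene's exon length in bases. The build is mm10 per the labels, and the aligner version is not given in the sources used here. Replicate numbers came from the labels and match the headers. The recorded command has no option for reads with several hits.

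Symbols came from GENCODE M21 by identifier (50376 of 50600 matched). Each count was divided by the gene's length and brought to a common library sum to give TPM. Genes were tested where their counts in the 4 libraries added up to 10 or more (17337). With R 4.3.3 and edgeR 4.0.16, quasi-likelihood fits tested each level against 1 TPM (intercept only, with length and library scale as offset) and each replicate against the other 3 (TMM scaling); spread was each gene's quasi-dispersion over its trend. P-values were Benjamini-Hochberg adjusted over all genes tested, with a threshold of 0.05. A standard error was obtained by dividing the size of the log2 change by the root of its F statistic. Alternatives were DESeq2 1.42.0, RLE size factors, other count filters, another TPM scale and leaving out each library; scaling by total count alone was added after seeing the data. No 2 libraries had identical counts or counts within sampling noise. Scripts were tested on simulated data, and tables and figures used Python 3.11.15, pandas 2.3.3 and matplotlib 3.10.9. Promoter windows came from RefSeq (GRCm38.p6) and were searched for exact matches.

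The 32 genes, the other lists and the tests were chosen with earlier results of these data known. All 32 genes may be named; of the other pathway lists, all ATF4 and CHOP targets, the 3 genes with the highest mean TPM and the called gene with the largest change. The design had also planned a search of protein ends, which are not analysed here. The value of 1 gene of the other ERAD list is not reported here, though the counts of that list include it.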

Additional observations from a re-analysis of the deposited data

Results flagged for a closer look

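Within the group of 4 libraries, the TPM of 14 of the 32 genes had 1 library so far from the rest that the gap to its nearest neighbour, as a share of the whole range, passed Dixon's 95% critical value for 4 samples. In all 14 it was replicate 2, and it was the lowest. Over all 17337 genes tested the share with such a library was 10.5%, and with replicate 2 as the low one 3.96%, beside 43.8% of the 32. Among the 8809 genes with a mean of at least 10 TPM these shares were 12.0% and 6.15%. Chance alone gives about 1 such case in 20 groups of values, and these genes share the same library, so the cases are not independent. Among the chaperones the share of the range was 0.9744 for Hspa5, 0.9275 for Hsp90b1, 0.9333 for Hyou1, 0.8813 for Creld2, 0.9532 for Dnajb11 and 0.8808 for Dnajb9. Among the isomerases it was 0.9681 for P4hb and 0.9568 for Pdia6. The regulators Xbp1, Ppp1r15b and Ppp1r15a had 0.9408, 0.8889 and 0.8643. The ERAD gene Herpud1 had 0.8772, and the transport genes Sec61a1 and Sec24d had 0.8872 and 0.9374.

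The same held for all 6 summed levels, with replicate 2 lowest. The sums are made of the same genes, and the sum of the 32 contains the others, so they are not separate cases. The share of the range was 0.9442 for the 32 genes together, 0.9441 for chaperones and 0.9048 for lectins and isomerases. It was 0.9699 for sensors and regulators, 0.9277 for ERAD and 0.9169 for transport. Derl3, with the largest fold change of the 32, was not among the 14 genes above.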

How the results depend on the processing

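The number of the 32 genes that fell in replicate 2 was 22 as reported and ran from 19 (DESeq2) to 24 (scaling by total count alone, added after seeing the data) over the settings run, and no change that was called in any setting turned its sign. Among changes with no call, the sign turned for Edem1, Vcp and Derl2 in replicate 2 (14 values over the settings, -0.02 to -0.00). In replicates 1, 3 and 4 it turned for 11, 8 and 20 genes when replicate 2 was left out (the lowest at -0.08, -0.22 and -0.15), and for 2, 2 and 4 genes in other settings. DESeq2 did not call Dnajb11, Syvn1 and Derl1, and Derl1 was also lost without replicate 1. Atf6 was gained without replicate 1 (log2 change -0.17) and with total-count scaling (-0.16), and Dnajb9 with at least 100 summed counts (-0.31) and with total-count scaling (-0.33). Every gene kept its call with RLE size factors, with no count filter, and without replicate 3 or 4. The fitted level of all 32 stayed above 1 TPM in every setting run. The summed level ran from 8961 to 9702 TPM when each library was left out in turn, and was 9522 TPM on a scale without mitochondrial and small RNA genes. The count of genes variable between replicates was 0 as reported and 1 (Sec24d, adjusted p = 0.0153) when every gene with at least 1 summed count was tested; the cause was not tested. Low counts limit Derl3, with 22 to 93 per library. No paired analysis was possible because all 4 libraries belong to 1 group.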
